A study of Mus musculus with 24 samples.

Results

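Heme and iron handling genes were followed here in myeloid cells from mouse tumors. The 10 genes were the hemoglobin-haptoglobin receptor Cd163, the heme oxygenase Hmox1, the biliverdin reductases Blvra and Blvrb, the ferritin subunits Fth1 and Ftl1, the iron exporter Slc40a1 (ferroportin), the transferrin receptor Tfrc, its partner Hfe, and the phagosomal metal transporter Slc11a1 (NRAMP1). They were chosen by name, and their symbols were matched to the Ensembl identifiers of the count data. All 10 were found among 54446 gene identifiers, and all 10 passed the filter on low counts. The study sorted CD11b+ myeloid cells from MC38 tumors, a colon carcinoma line injected under the skin of mice, and sequenced their polyadenylated RNA. The labels give the tumors as the tissue of every sample, although their growth protocol speaks of tumors or blood. Each RNA was sequenced both directly (Input) and after fragments bearing N6-methyladenosine (m6A) had been captured by an antibody (IP), which is MeRIP-seq. All mice were of the C57BL/6J background. They were WT, meaning Ythdf2 fl/fl without Cre, or cKO, meaning Lyz Cre Ythdf2 fl/fl, in which Cre comes from the Lyz2 locus and acts in lysozyme-expressing myeloid cells. Tumors were unirradiated (Ctrl) or had received a single dose of 20 Gy (IR), and cells were collected 3 days after IR. These choices gave 8 groups of 3 libraries, 24 in all. Per the methods the mice were 8 to 10 weeks old and of both sexes, and the cells of 5 mice were pooled for each replicate. The replicates are called technical in 1 place and biological in another, so the p-values below measure the spread between libraries.

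Macrophages take up hemoglobin and dying red cells, open the heme ring with heme oxygenase, reduce the resulting biliverdin with biliverdin reductase, and either store the freed iron in ferritin or export it through ferroportin. Iron regulatory proteins tune this traffic by binding a stem-loop called the iron-responsive element (IRE). In a 5′ UTR the bound element blocks translation of ferritin and ferroportin, and in the 3′ UTR of Tfrc it protects the transcript from decay. The transcription factors NRF2, which activates, and BACH1, which represses, control Hmox1, the ferritin genes and Slc40a1, and YTHDF2 is a reader protein that directs transcripts carrying m6A to degradation.

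The IREs of the genes are shown here because they divide the set into transcripts whose element is known to act on translation and a transcript whose element is known to act on stability. The pattern searched was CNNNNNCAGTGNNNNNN with 5 stem positions able to pair around the loop, read on the transcribed strand only. It matched a UTR of 160 of 21901 protein-coding genes (0.731%) and 4 of the 10 genes, and a match is a description of the letters, not evidence of binding. Sequences are from the GENCODE vM21 transcripts on GRCm38 (mm10), and capitals mark the bulged C and the 6 bases of the loop.
Fth1 5′ UTR, chr19:9982732-9982761, + strand: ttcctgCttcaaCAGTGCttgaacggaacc
Ftl1 5′ UTR, chr7:45459778-45459807, - strand: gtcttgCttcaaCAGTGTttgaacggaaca
Slc40a1 5′ UTR, chr1:45925464-45925493, - strand: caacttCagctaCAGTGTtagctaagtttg
Tfrc 3′ UTR site 1, chr16:32631219-32631248, + strand: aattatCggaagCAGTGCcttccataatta
Tfrc 3′ UTR site 2, chr16:32631598-32631627, + strand: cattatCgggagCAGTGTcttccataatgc
Tfrc 3′ UTR site 3, chr16:32631663-32631692, + strand: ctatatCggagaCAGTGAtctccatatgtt
Tfrc 3′ UTR site 4, chr16:32631710-32631739, + strand: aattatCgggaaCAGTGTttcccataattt
The 5′ UTR pattern was found in 0.142% of protein-coding genes, among them Fth1, Ftl1 and Slc40a1. The 3′ UTR pattern was found in 0.589% of genes, and Tfrc held it 4 times. No UTR match was found in Hmox1, Blvra, Blvrb, Cd163, Hfe or Slc11a1.

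Input libraries held 65.2M to 83.7M gene counts and IP libraries 68.8M to 86.4M (M, counts in units of 1e6), so counting error was small for all of the genes but Cd163. Lyz2, whose locus carries the Cre, averaged 20580 (Ctrl) and 20750 (IR) CPM (counts per 1e6 counts, after scaling) in the WT Inputs but 299.8 and 409 in those of cKO, as the genotype labels of the Inputs imply. Among the Ctrl IP libraries the genotypes were likewise at 16120 (WT) and 88.7 (cKO), but among the IR IP libraries the label WT went with 89.6 CPM and the label cKO with 19700. For the IR IP groups the Lyz2 level therefore went against the genotype label, and their values are given mainly as the average over both genotype labels, which does not depend on which is which. Ythdf2 itself was higher in the cKO Inputs (178 and 223 CPM in Ctrl and IR) than in the WT Inputs (96.8 and 105). Counts over the whole gene do not isolate the deleted part, so this checks nothing. WT IR Input replicate 1 stood apart from replicate 2 (chi-square per degree of freedom 37.6, against 9.72 between replicates 2 and 3), and results that rest on it are given with and without it. The myeloid defining genes (Itgam, Ptprc, Tyrobp, Fcer1g, Csf1r and Cd68) summed to 3811 to 4945 CPM in every Input, and the tumor epithelial and lymphocyte lists to at most 8.13 and 2.87 CPM. The endothelial list (Pecam1, Cdh5, Kdr, Vwf and Tek) summed to more and differed by group. It reached 179.7 to 181.3 CPM in WT Ctrl, 182.2 to 190.3 in WT IR, 150.2 to 153.3 in cKO Ctrl and 112.4 to 119.9 in cKO IR. This sum did not describe each gene of the list. Of the 4 that were tested, 0 were called higher and 1 lower with irradiation in WT, where the sum did not fall. In each other comparison of 2 groups, 0 were higher, 2 lower and 2 not called. In Ctrl tumors the summed neutrophil markers were 2568 to 2652 CPM (WT) and 1135 to 1145 (cKO), and in IR tumors 499 to 531 (WT) and 480 to 499 (cKO). The summed tissue macrophage markers, in the same order, were 1592 to 1624, 2060 to 2087, 1436 to 1467 and 1801 to 1820 CPM, and the monocyte markers 1095 to 1137, 1047 to 1057, 474.5 to 496 and 785 to 803. These sums moved with the groups, as did the values below, and their part in the results was not tested. The markers of a list did not always move together. Between the Ctrl groups 3 monocyte markers were called higher and 3 lower in cKO, and 1 neutrophil marker higher and 8 lower. With irradiation in WT, 2 tissue macrophage markers rose, 4 fell and 5 were not called, while all 9 neutrophil and all 6 monocyte markers fell. In bulk RNA, fewer cells of a type and less RNA per cell cannot be told apart.

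Globin reads marked the WT IR Inputs. The 4 adult globin genes (Hbb-bs, Hbb-bt, Hba-a1 and Hba-a2) summed to 1711, 1716 and 1951 counts in the 3 WT IR Inputs, and to 0 to 5 counts in each of the other 9 Inputs. The IP libraries held 0 to 14 each, with 14, 1 and 0 in those labelled WT IR and 1, 2 and 14 in those labelled cKO IR. Alas2, the erythroid enzyme of heme synthesis, had 438 counts over the 3 WT IR Inputs and at most 4 over any other group. Other erythroid genes had few counts. Klf1 had 27 counts over the WT IR Inputs, and the membrane genes Slc4a1, Epb42 and Rhag had 0. The 11 genes of the erythroid list that were found summed to 28.2 to 30.7 CPM in the WT IR Inputs and to at most 0.187 CPM in any other. Leaving the 4 globin genes out and refitting changed no call among the 10. Whether red cells or their precursors took part in the differences of the WT IR Inputs was not tested.

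With tumor irradiation the RNA of Hmox1 and Slc40a1 rose and that of Tfrc fell in both genotypes. In WT cells 5 of the 10 genes were called (edgeR quasi-likelihood test on all 12 Inputs, Benjamini-Hochberg adjusted p under 0.05), against 31.7% of all 16090 genes tested. Hmox1 and Slc40a1 rose (14.7% of all genes did), and Tfrc, Blvra and Hfe fell (17.0%). In cKO cells 7 of the 10 were called, against 45.6% of all genes. There Hmox1, Slc40a1, both biliverdin reductases and both ferritin genes rose (21.8% of all genes did), and Tfrc fell (23.8%). The median log2 change of the 10 genes with irradiation was -0.06 in WT and 0.16 in cKO, against 0.01 for all genes in each. The 3 values of each group did not overlap for 6 of the 10 genes in WT (39.8% of all genes) and for 8 in cKO (55.8%).

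Slc40a1 was lower in cKO than in WT, and Tfrc and Hfe higher, with and without irradiation. Hmox1 was also called lower and Blvra and Cd163 higher in both settings, but the call of Hmox1 in IR and those of Blvra and Cd163 in Ctrl were lost when single libraries were left out (values below). In Ctrl tumors 7 of the 10 genes were called between cKO and WT, against 15.7% of all genes. Tfrc, Hfe, Blvra and Cd163 were higher in cKO (8.05% of all genes were), and Slc40a1, Hmox1 and Ftl1 lower (7.61%). In IR tumors 8 of the 10 were called, against 47.7% of all genes. Blvrb and Fth1 then joined the genes that were higher in cKO, making 6 (23.9% of all genes), while Slc40a1 and Hmox1 were lower (23.8%) and Ftl1 was not called. The median log2 difference between cKO and WT over the 10 genes was 0.07 in Ctrl and 0.26 in IR, against 0.00 for all genes in each. The comparisons share their control groups and are not independent of each other. The 3 values of each group did not overlap for 9 of the 10 genes between cKO Ctrl and WT Ctrl (36.3% of all genes) and for 8 between the IR groups (52.1%).

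**Figure D1:**
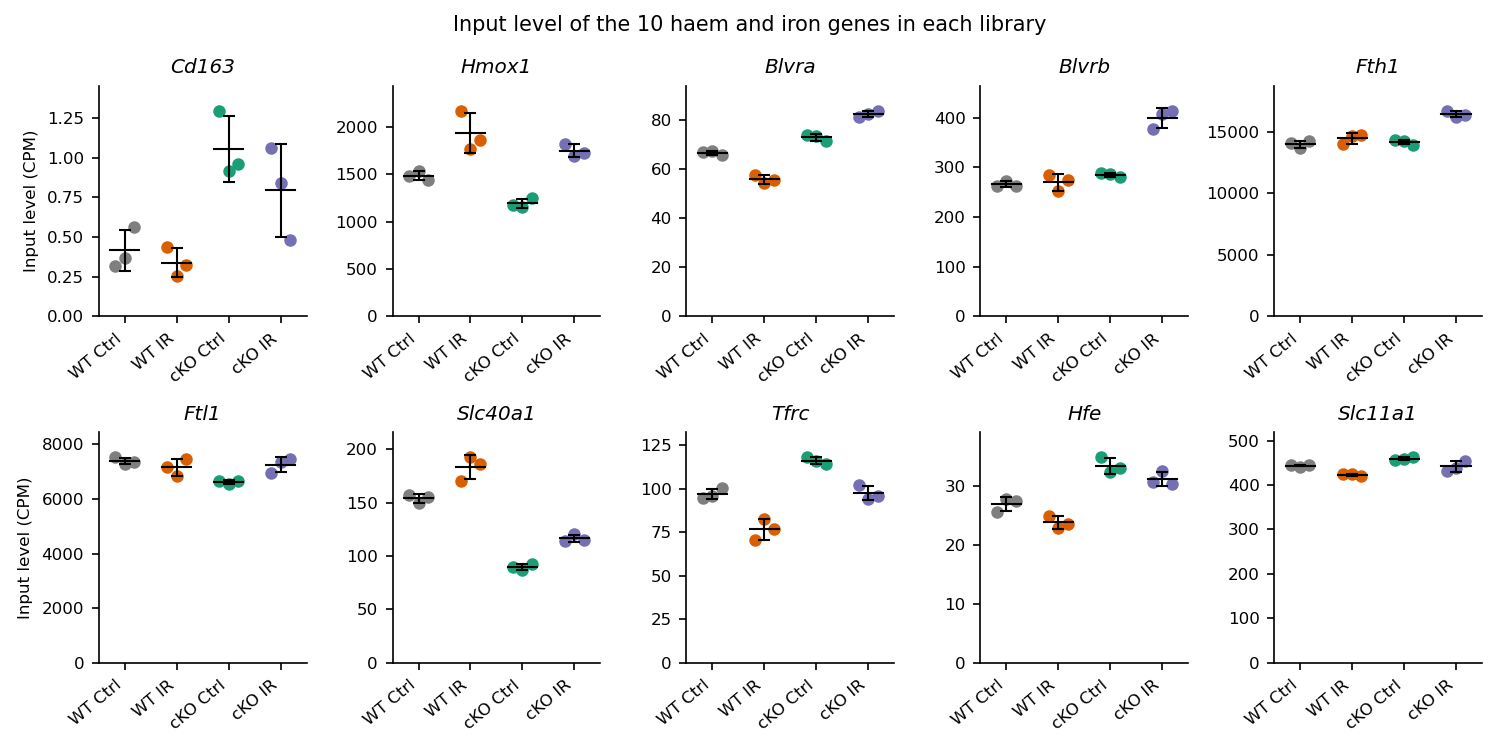
Input level in CPM (vertical axes starting at 0) of each gene in the 12 Input libraries. Points are libraries, horizontal lines are group means and bars are SD (n = 3). The 4 groups of Slc40a1 are apart, with cKO Ctrl at the bottom and WT IR at the top, and Fth1 and Blvrb stood above the other groups in cKO IR alone.

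Heme breakdown begins with Hmox1, the stress-inducible heme oxygenase (chr8:75093621-75100589 on GRCm38, + strand). Its Input level was 1480, 1539 and 1441 CPM (WT) and 1180, 1160 and 1248 CPM (cKO) in Ctrl tumors. In IR tumors the values were 2175, 1774 and 1868 CPM (WT) and 1826, 1695 and 1725 CPM (cKO). Every irradiated library was above every unirradiated library of either genotype. Irradiation raised it by 0.38 ± 0.05 on the log2 scale (± SE) in WT (edgeR adjusted p = 8.1e-06) and by 0.55 ± 0.05 in cKO (adjusted p = 3.6e-08). In Ctrl tumors it was lower in cKO by a log2 difference of -0.31 ± 0.05 (edgeR adjusted p = 0.00023). In IR tumors the genotypes overlapped and the difference was -0.15 ± 0.05 (edgeR adjusted p = 0.024). That call rested on WT IR replicate 1, the highest of the 12 libraries, without which the difference was -0.06 (edgeR adjusted p = 0.13). Leaving out cKO IR replicate 2 or 3 also ended it (edgeR adjusted p = 0.10 and 0.076). The difference between the irradiation effects of the genotypes was 0.16 (edgeR adjusted p = 0.10), and 0.25 without WT IR replicate 1 (edgeR adjusted p = 2e-05).

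The biliverdin reductases Blvra and Blvrb both had their highest levels in cKO IR. Blvrb (chr7:27447978-27466144, + strand), which also reduces flavins, had 262, 273 and 263 CPM in WT and 288, 287 and 281 in cKO without irradiation, and 285, 251 and 274 in WT and 377, 406 and 414 in cKO with it. Its cKO IR libraries stood above all others, while the 3 other groups lay close together. With irradiation it changed by 0.49 ± 0.04 in cKO (edgeR adjusted p = 1e-08) and by 0.02 ± 0.04 in WT (edgeR adjusted p = 0.74). The difference of these effects was 0.46 ± 0.06 (edgeR adjusted p = 6.8e-06). Blvra (chr2:127070665-127097084, + strand), the main biliverdin reductase of adult tissue, had 67.1, 67.4 and 65.9 CPM (WT) and 74.1, 73.7 and 71.5 CPM (cKO) in Ctrl tumors. In IR tumors the values were 57.9, 54.4 and 55.6 CPM (WT) and 81.3, 82.6 and 84.0 CPM (cKO). The 4 groups did not overlap. Irradiation lowered it in WT (-0.26 ± 0.04, edgeR adjusted p = 2.2e-05) and raised it in cKO (0.18 ± 0.04, edgeR adjusted p = 0.00057), and the effects differed by 0.43 ± 0.05 (edgeR adjusted p = 3.9e-06). The difference between cKO Ctrl and WT Ctrl was smaller (0.13 ± 0.04, edgeR adjusted p = 0.022) and was not called when WT Ctrl replicate 1 or 3 or cKO Ctrl replicate 1 or 2 was left out (0.12 to 0.13, edgeR adjusted p = 0.059 to 0.09).

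Cd163 (chr6:124304656-124330527, + strand), the receptor through which macrophages take up hemoglobin bound to haptoglobin, was close to the detection limit. Its Input counts were 23, 28 and 42 (WT) and 93, 77 and 73 (cKO) in Ctrl tumors, and 28, 17 and 22 (WT) and 77, 60 and 32 (cKO) in IR tumors. The cKO Ctrl libraries were all above the WT Ctrl libraries. The log2 difference between cKO and WT was 1.34 ± 0.34 in Ctrl (edgeR adjusted p = 0.0089) and 1.23 ± 0.35 in IR (edgeR adjusted p = 0.0068). Without WT Ctrl replicate 1 or cKO Ctrl replicate 1 the Ctrl difference was 1.18 or 1.17 and was no longer called (edgeR adjusted p = 0.051 and 0.053). No effect of irradiation was detectable at this depth, with 95% intervals from -1.07 to 0.47 in WT and from -1.08 to 0.27 in cKO.

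Ferritin, the iron store, is built from heavy subunits with ferroxidase activity (Fth1) and light subunits that favor mineral formation (Ftl1). Fth1 (chr19:9980598-9985098, + strand) had 14080, 13680 and 14230 CPM in WT and 14320, 14260 and 13980 in cKO without irradiation, and 13990, 14700 and 14780 in WT and 16740, 16250 and 16350 in cKO with it. Only the cKO IR libraries stood apart from the rest. Irradiation raised Fth1 in cKO by 0.21 ± 0.02 (edgeR adjusted p = 2.3e-07). The change in WT was 0.05 ± 0.02 (edgeR adjusted p = 0.11), or 0.08 without WT IR replicate 1 (edgeR adjusted p = 0.0016). The effects of the genotypes differed by 0.16 ± 0.03 (edgeR adjusted p = 0.00074). Ftl1 (chr7:45457944-45459884, - strand) had 7535, 7290 and 7365 CPM (WT) and 6670, 6534 and 6647 CPM (cKO) in Ctrl tumors. In IR tumors the values were 7181, 6832 and 7463 CPM (WT) and 6941, 7362 and 7480 CPM (cKO). Its lowest group was cKO Ctrl, which overlapped none of the others. It was lower in cKO Ctrl than in WT Ctrl (-0.16 ± 0.03, edgeR adjusted p = 0.00079) and rose with irradiation in cKO (0.13 ± 0.03, edgeR adjusted p = 0.0011) but not detectably in WT (-0.05 ± 0.03, edgeR adjusted p = 0.26). The effects differed by 0.18 ± 0.04 (edgeR adjusted p = 0.0028). All ferritin differences were below 1.2-fold. Reads of Ftl1 may be shared with its near-identical pseudogene copies.

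Slc40a1 (chr1:45908068-45926523, - strand), the only known iron exporter of mammalian cells, had the largest genotype difference of the set after Cd163. It had 157, 149.5 and 155 CPM in WT and 89.6, 86.9 and 92.2 in cKO without irradiation, and 171, 193 and 187 in WT and 114, 120.3 and 115 in cKO with it. The 4 groups did not overlap, and every cKO library was below every WT library. The level in cKO was lower by a log2 difference of -0.78 ± 0.04 in Ctrl (edgeR adjusted p = 8.5e-11) and of -0.65 ± 0.04 in IR (edgeR adjusted p = 1.6e-10). Irradiation raised it by 0.25 ± 0.04 in WT (edgeR adjusted p = 1e-04) and by 0.38 ± 0.04 in cKO (edgeR adjusted p = 4.1e-07). The difference of these effects was 0.13 ± 0.06 and was not called (edgeR adjusted p = 0.13), except without WT IR replicate 2 (0.16, edgeR adjusted p = 0.028).

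**Figure D2:**
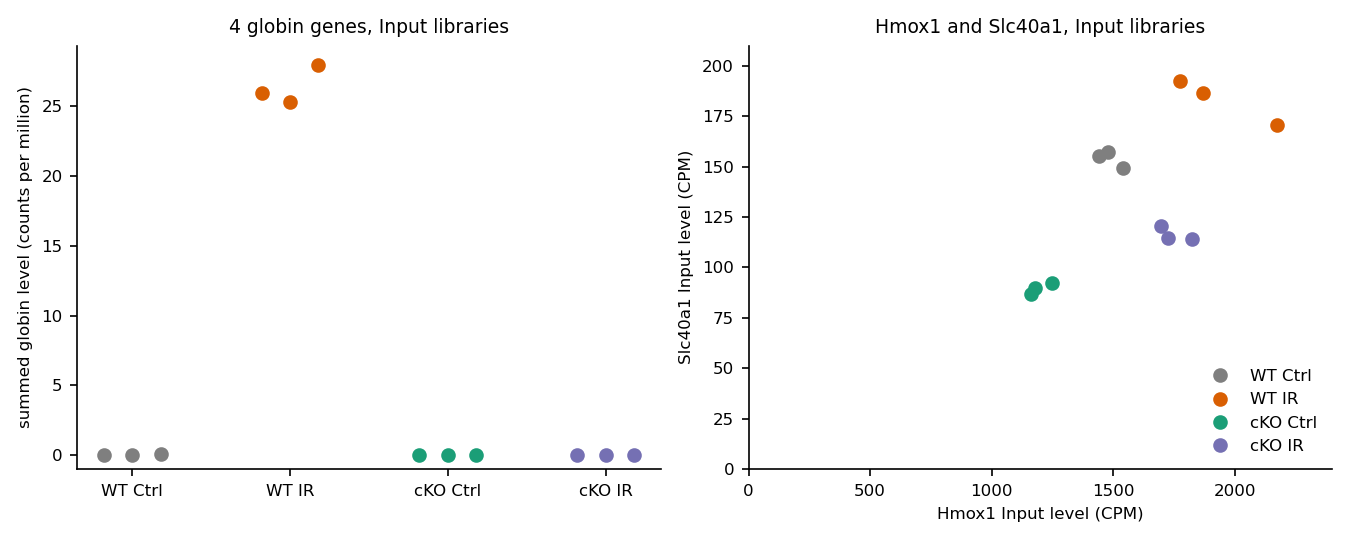
Left, summed CPM of the 4 adult globin genes in each Input library. Right, Input level of Slc40a1 against that of Hmox1, both in CPM, 1 point per library. The 3 WT IR libraries hold 1711 to 1951 globin counts and the others 0 to 5, the irradiated libraries lie to the right of the unirradiated ones on the Hmox1 axis, and the cKO libraries lie below the WT libraries on the Slc40a1 axis.

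Tfrc moved opposite to Slc40a1 in each of the 4 comparisons of groups. Tfrc (chr16:32608920-32632794, + strand), which brings in transferrin-bound iron, had 94.7, 95.5 and 100.4 CPM (WT) and 118, 116 and 114 CPM (cKO) in Ctrl tumors. In IR tumors the values were 70.7, 82.8 and 76.6 CPM (WT) and 102, 94.2 and 95.8 CPM (cKO). It was lowest in WT IR and highest in cKO Ctrl, while WT Ctrl and cKO IR overlapped. It fell with irradiation, with a log2 change of -0.34 ± 0.05 in WT (edgeR adjusted p = 1.6e-05) and -0.25 ± 0.05 in cKO (edgeR adjusted p = 2e-04). It was higher in cKO by 0.26 ± 0.05 in Ctrl (edgeR adjusted p = 0.00064) and 0.34 ± 0.05 in IR (edgeR adjusted p = 6.2e-06). Hfe (chr13:23702034-23710854, - strand), an MHC class I-like protein that binds the transferrin receptor and takes part in iron sensing, had 25.6, 27.7 and 27.5 CPM in WT and 34.9, 32.3 and 33.1 in cKO without irradiation, and 24.98, 22.9 and 23.6 in WT and 30.6, 32.6 and 30.3 in cKO with it. All 6 cKO libraries were above all 6 WT libraries. The difference was 0.31 ± 0.05 in Ctrl (edgeR adjusted p = 0.00034) and 0.39 ± 0.06 in IR (edgeR adjusted p = 6.5e-06). Its fall with irradiation in WT (-0.18 ± 0.06, edgeR adjusted p = 0.018) was not called when replicate 2 or 3 of WT Ctrl or of WT IR was left out (-0.15 to -0.17, edgeR adjusted p = 0.058 to 0.078).

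Slc11a1 (chr1:74375195-74386062, + strand), which moves iron and manganese out of the phagosome and limits intracellular microbes but is known to be non-functional as a protein in C57BL/6 mice, stayed closest to no difference of the 10 genes when each is judged by its largest Input difference. It had 445, 441 and 445 CPM (WT) and 456, 459 and 463 CPM (cKO) in Ctrl tumors. In IR tumors the values were 425, 424 and 419.9 CPM (WT) and 432, 439 and 455 CPM (cKO). None of the 5 Input comparisons called it, and its log2 differences lay between -0.07 and 0.06, with edgeR adjusted p of 0.068 or more. The WT IR libraries lay below and the cKO Ctrl libraries above all others, while WT Ctrl and cKO IR overlapped. Without WT IR replicate 1 the fall in WT (-0.07, edgeR adjusted p = 0.035) and the difference between the IR groups (0.07, edgeR adjusted p = 0.044) were called, the latter also without cKO IR replicate 1 (0.08, edgeR adjusted p = 0.041).

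**Figure D3:**
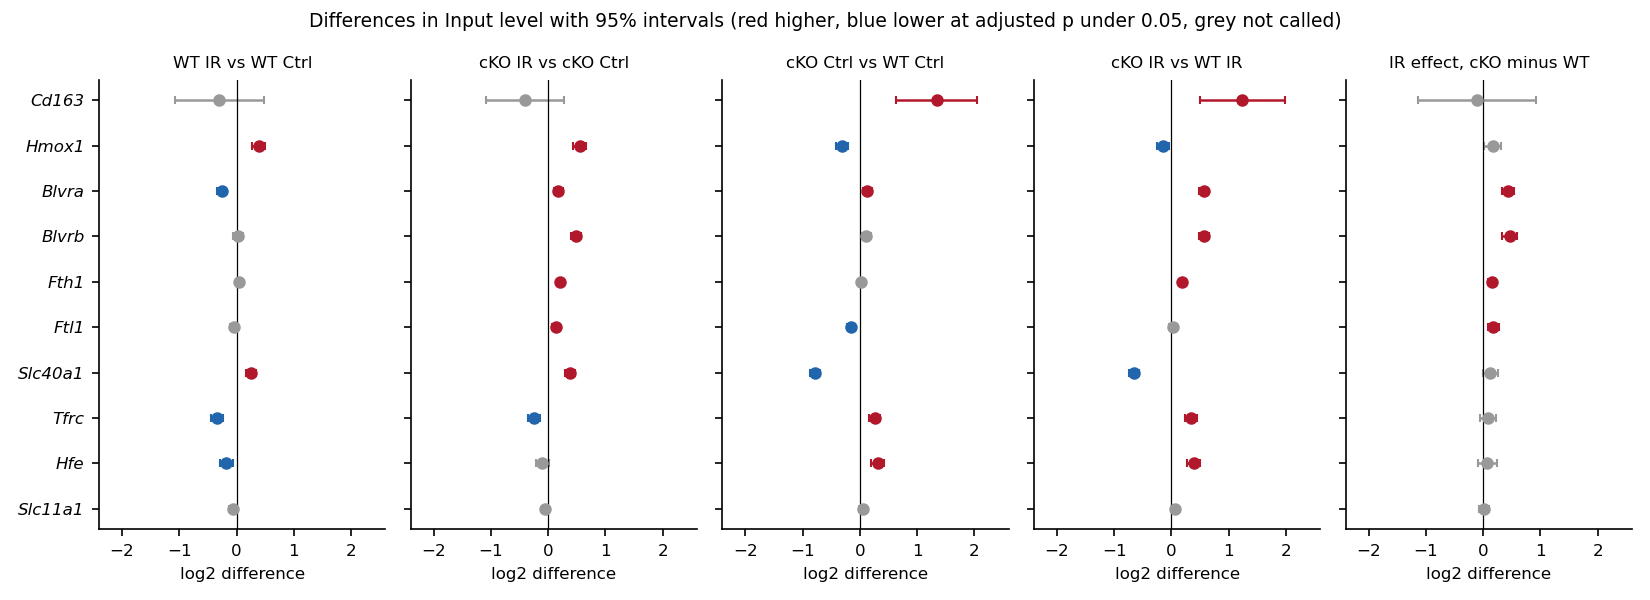
Log2 differences in Input level for each gene in the 5 comparisons, with 95% intervals from the edgeR fit. Red and blue points are higher and lower at adjusted p under 0.05 and grey points were not called. In the last panel, the effect of irradiation in cKO less its effect in WT, only Blvra, Blvrb, Fth1 and Ftl1 are called, all to the right of 0.

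The irradiation effect differed between the genotypes for 4 of the 10 genes, against 30.2% of all genes, and all 4 had the higher log2 change in cKO (15% of all genes, against 15.2% with the higher change in WT). They were both biliverdin reductases and both ferritin genes, with differences of 0.16 to 0.46. Hmox1, Slc40a1 and Tfrc, which changed with irradiation in both genotypes, were not among them. The median difference over the 10 genes was 0.14, against 0.00 over all genes.

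Within a library the genes spanned more than 4 orders of magnitude. Per kilobase of annotated exon, the WT Ctrl Inputs held Ftl1 (mean 5520 CPM per kb), Fth1 (4034), Hmox1 (849), Slc11a1 (119.7), Blvrb (95.6), Blvra (27.3), Slc40a1 (17.1), Tfrc (15.7), Hfe (7.54) and Cd163 (0.0761), and no neighbors in this order overlapped. Per kilobase of the main coding transcript the order differed in that Fth1 (9369 CPM per kb) came before Ftl1 (7641) and Blvrb (259) before Slc11a1 (192). In cKO Ctrl, Tfrc (18.8 CPM per kb of exon) was above Slc40a1 (9.95), and Slc40a1 and Hfe (9.36) overlapped. On the exon scale the exporter was thus above the receptor in the WT groups and below it in the cKO groups. On the scale of the main transcript it was above it in all 4, from 54.4 against 15.7 CPM per kb in WT IR to 26.6 against 23.7 in cKO Ctrl.

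Other genes of heme and iron metabolism were read from a list of 63, of which 52 were tested in the Inputs. With irradiation 26 of the 52 changed in WT (16 higher and 10 lower), where 31.7% of all genes did, and 27 in cKO (14 and 13), where 45.6% did. Between cKO and WT, 18 were called in Ctrl (8 higher and 10 lower, against 15.7% of all genes) and 32 in IR (14 and 18, against 47.7%), and the irradiation effect differed for 19 (10 and 9, against 30.2%). Lcn2, the siderophore-binding lipocalin of neutrophils, had the largest change with irradiation in WT and the largest difference between the Ctrl groups. Its mean level fell from 488 to 107 CPM in WT and from 232 to 147 CPM in cKO, an irradiation effect of -2.19 ± 0.04 in WT and -0.66 ± 0.04 in cKO that differed by 1.53 ± 0.05 (edgeR adjusted p = 5.1e-13). The neutrophil marker sums given above were likewise highest in WT Ctrl, next in cKO Ctrl and lowest in the IR groups. Within the IR groups the order differed, as Lcn2 was higher in cKO while the neutrophil sum was 499 to 531 CPM in WT and 480 to 499 in cKO. The part of neutrophils in the Lcn2 values was not tested. Haptoglobin (Hp), which captures free hemoglobin, fell with irradiation in WT (-0.60 ± 0.05, edgeR adjusted p = 6.4e-09) and, among the IR groups, was higher in cKO (1.02 ± 0.05, edgeR adjusted p = 2.5e-12). Hp is also 1 of the 6 monocyte markers summed above. The ferroxidase ceruloplasmin (Cp), which works with ferroportin, was higher in cKO in Ctrl (0.65 ± 0.09, edgeR adjusted p = 2.1e-05) and IR (1.02 ± 0.09, edgeR adjusted p = 1.4e-08), at mean levels of 5.71 to 11.6 CPM. Lrp1, the receptor for heme bound to hemopexin, was lower in cKO among the IR groups (-0.89 ± 0.03, edgeR adjusted p = 2.6e-14), and its irradiation effects differed by -0.69 ± 0.04. The heme synthesis gene Uros rose with irradiation in cKO (0.63 ± 0.13, edgeR adjusted p = 0.00031), and Epas1, a hypoxia-responsive factor with an IRE-regulated transcript, fell there (-0.79 ± 0.19, edgeR adjusted p = 0.0022). The IRE pattern searched above found no site in the UTRs of Epas1, so that search can miss known elements.

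Of 13 regulators and targets of the NRF2 and BACH1 pathway, 6 rose and 2 fell with irradiation in WT (14.7% and 17.0% of all genes), and 7 rose and 4 fell in cKO (21.8% and 23.8%). In cKO against WT, 1 was higher and 6 lower in Ctrl (8.05% and 7.61% of all genes), and 1 was higher and 7 lower in IR (23.9% and 23.8%). Slc7a11, Gclc, Gclm and Txnrd1, of glutathione and thioredoxin metabolism, were the 4 of the 13 that were called higher with irradiation in both genotypes and lower in cKO in both settings, and they are grouped here after their values were seen. Gclm, for example, rose by 0.25 in WT and 0.34 in cKO and differed between cKO and WT by -0.36 in Ctrl and -0.27 in IR. Other targets on the list did not share all 4 calls, and how many of all genes shared them was not counted. Nqo1 was not called with irradiation in WT (0.15, edgeR adjusted p = 0.065), Nqo1 and Srxn1 were not called between the IR groups (-0.10 and -0.05, edgeR adjusted p = 0.2 and 0.27), and G6pdx fell with irradiation in WT (-0.15, edgeR adjusted p = 5e-04) and in cKO (-0.28, edgeR adjusted p = 2e-07). The cystine transporter Slc7a11 rose with irradiation in WT (0.60 ± 0.06, edgeR adjusted p = 4.7e-08), and the quinone reductase Nqo1 was lower in cKO Ctrl than in WT Ctrl (-0.44 ± 0.06, edgeR adjusted p = 3.4e-05). The gene higher in cKO in both settings was Nfe2l2, which encodes NRF2 itself (0.36 ± 0.03 in Ctrl, edgeR adjusted p = 3e-07, and 0.19 ± 0.03 in IR, edgeR adjusted p = 0.00014). Bach1 fell with irradiation in WT (-0.11 ± 0.03, edgeR adjusted p = 0.013) and in cKO (-0.26 ± 0.03, edgeR adjusted p = 1.3e-06). Slc48a1, which carries heme out of the phagolysosome, rose with irradiation in WT (0.18 ± 0.04, edgeR adjusted p = 0.0018) and in cKO (0.28 ± 0.04, edgeR adjusted p = 6.5e-06) and was lower in cKO in Ctrl (-0.37 ± 0.04, edgeR adjusted p = 1e-06) and IR (-0.27 ± 0.04, edgeR adjusted p = 1.2e-05). Of the iron regulatory proteins, Ireb2 (IRP2) was called in none of the 5 comparisons (differences from -0.16 to 0.06), while Aco1 (IRP1) fell with irradiation in cKO (-0.30 ± 0.04, edgeR adjusted p = 4.3e-06). Ncoa4, the receptor that delivers ferritin to autophagy, also fell there (-0.18 ± 0.05, edgeR adjusted p = 0.0033), and the constitutive heme oxygenase Hmox2 was higher in cKO in Ctrl (0.27 ± 0.04, edgeR adjusted p = 2.3e-05) and IR (0.37 ± 0.04, edgeR adjusted p = 6.1e-08).

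Most of the 10 transcripts were depleted in the m6A IP. In WT Ctrl the IP differed from the Input for 9 of the 10 (edgeR fit of all 24 libraries), against 75.5% of the 17373 genes tested. It was lower for 8 (37.5% of all genes) and higher for 1 (38.1%). The median log2 IP over Input of the 10 genes was -1.72 in WT Ctrl and -1.70 in cKO Ctrl, against 0.02 over all genes in each, and -0.55 and -0.60 over the 55 other heme and iron genes tested. In cKO Ctrl all 10 were called (73.7% of all genes), 8 lower (36.0%) and 2 higher (37.8%). Averaged over the IR groups, all 10 were called (80.3%), 9 lower (40.2%) and 1 higher (40.1%), with a median of -1.63. On the scale shared by all 24 libraries, Slc40a1 had 169.5, 162 and 167 CPM in the WT Ctrl Inputs and 11.9, 11.6 and 12.8 CPM in the IPs, a log2 ratio of -3.78 ± 0.06 and the lowest of the set. Hmox1 had 1595, 1663 and 1553 CPM in the WT Ctrl Inputs and 158, 154 and 154 in the IPs, a ratio of -3.37 ± 0.05. The ratios in WT Ctrl were -2.60 for Slc11a1, -1.998 for Fth1, -1.79 for Blvrb, -1.64 for Ftl1, -1.44 for Tfrc and -0.67 for Hfe, each past the threshold. Blvra was not called between IP and Input in WT Ctrl (0.02 ± 0.04, edgeR adjusted p = 0.54). In cKO Ctrl it was higher by 0.09 ± 0.04 (edgeR adjusted p = 0.027), a call lost without Input replicate 1 or 3 or IP replicate 1 or 2 of that group (0.06 to 0.09, edgeR adjusted p = 0.062 to 0.2). Cd163 was the exception, with 0.344, 0.395 and 0.606 CPM in the WT Ctrl Inputs and 3.52, 3.85 and 3.46 in the IPs, a ratio of 3.002 ± 0.24 that rests on 93 Input counts over the 3 libraries. Ratios were scaled so that the typical gene lay near 0, so they order transcripts by relative enrichment and do not measure the share of m6A-modified molecules. Mitochondrial transcripts, 3.394 to 7.249% of Input counts, made up 0.266 to 0.271% of IP counts in WT Ctrl and 0.433 to 0.501% in cKO Ctrl. In the IR IPs they made up 0.924 to 1.095% (label WT) and 0.45 to 0.471% (label cKO). Whether depleted RNA remained in the IPs to different extents, and its part in the differences of ratios below, was not tested.

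**Figure D4:**
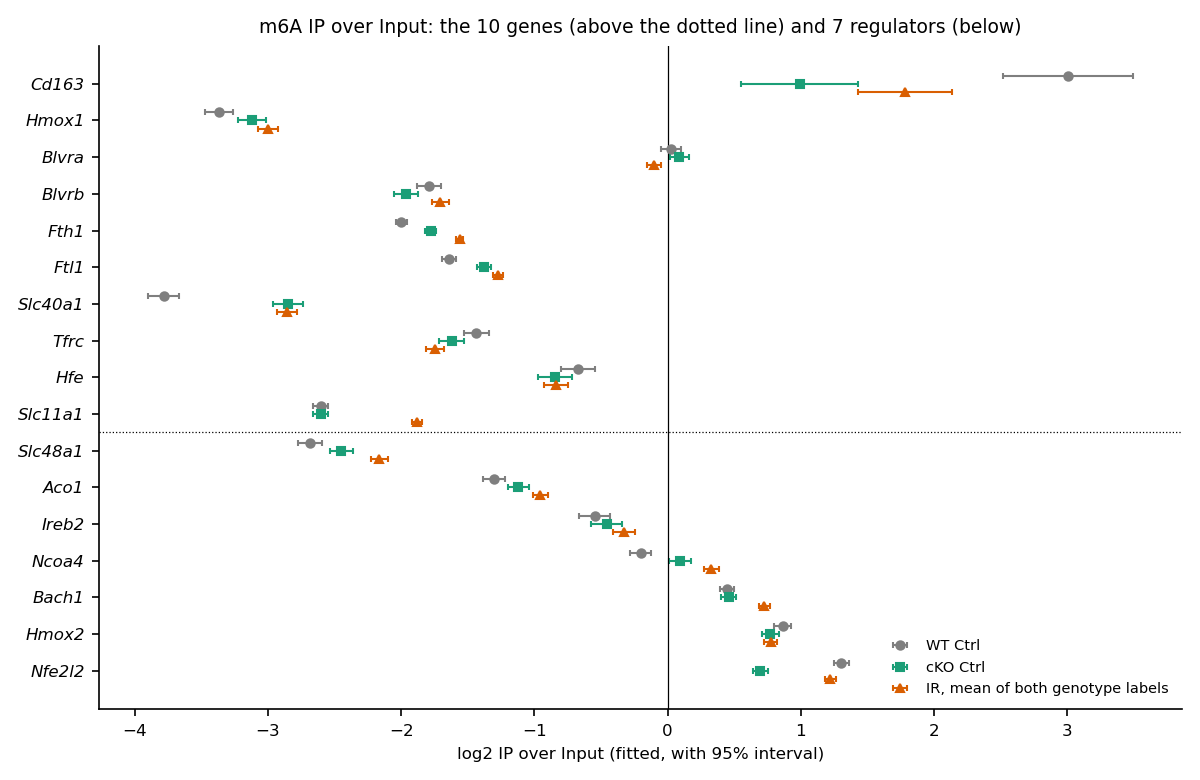
Fitted log2 IP over Input with 95% intervals for the 10 genes (above the dotted line) and for 7 regulators of heme and iron metabolism (below it), in WT Ctrl (circles), cKO Ctrl (squares) and the average of both IR genotype labels (triangles). Most of the 10 genes lie left of 0, down to -3.78 for Slc40a1 in WT Ctrl, while Bach1, Hmox2 and Nfe2l2 lie right of 0 in all 3.

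The log2 IP over Input differed between genotypes in Ctrl tumors for 7 of the 10 genes, against 22.6% of all genes, with 4 higher in cKO (10.1% of all genes) and 3 lower (12.5%). The ratio of Slc40a1 was -2.85 ± 0.06 in cKO Ctrl, a difference from WT of 0.93 ± 0.08 (edgeR adjusted p = 2.4e-11). In cKO Ctrl its IP levels were 12.7, 13.8 and 13.95 CPM and its Input levels 97.6, 94.7 and 99.7 CPM, so the IPs of the genotypes lay closer together than their Inputs. The ratios of Ftl1 (0.26 ± 0.04), Hmox1 (0.25 ± 0.07) and Fth1 (0.22 ± 0.03) were also higher in cKO Ctrl (edgeR adjusted p = 5.8e-07, 0.0053 and 1.9e-07). Cd163 went the other way by -2.01 ± 0.32 (edgeR adjusted p = 1.2e-05), from IP levels of 3.46 to 3.85 CPM in WT Ctrl to 2.08 to 2.41 in cKO Ctrl. The smaller falls of Blvrb (-0.17 ± 0.06) and Tfrc (-0.18 ± 0.06) had edgeR adjusted p of 0.037 and 0.036, close to the threshold, and leaving out single libraries ended the calls with little change in size. Blvrb was not called without WT Ctrl Input replicate 1 or 3, cKO Ctrl Input replicate 1 or 2, WT Ctrl IP replicate 1 or 2 or cKO Ctrl IP replicate 1 (-0.13 to -0.18, edgeR adjusted p = 0.053 to 0.14). Tfrc was not called without replicate 1 or 2 of either Ctrl Input group, WT Ctrl IP replicate 1 or 3 or cKO Ctrl IP replicate 2 or 3 (-0.16 to -0.19, edgeR adjusted p = 0.051 to 0.091). Hfe (-0.17, edgeR adjusted p = 0.17) was called only without cKO Ctrl IP replicate 2 (-0.25, edgeR adjusted p = 0.034). No difference was detectable for Slc11a1 (0.00 ± 0.04, 95% interval -0.08 to 0.08).

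Averaged over the genotype labels, 8 of the 10 ratios differed between IR and Ctrl, against 48.4% of all genes, with 6 higher in IR (25.3%) and 2 lower (23.1%). The ratio of Slc11a1 rose by 0.72 ± 0.03 (edgeR adjusted p = 6.1e-21) although its Input level was not called in any comparison. Its IP levels were 77.7 to 79.7 CPM in WT Ctrl and 81.4 to 83.2 in cKO Ctrl, against 129.9 to 137 (label WT) and 118 to 121 (label cKO) in the IR libraries. The ratios of Slc40a1 (0.46 ± 0.05), Fth1 (0.33 ± 0.02), Hmox1 (0.24 ± 0.05), Ftl1 (0.24 ± 0.02) and Blvrb (0.17 ± 0.04) also rose, and those of Tfrc (-0.22 ± 0.05) and Blvra (-0.16 ± 0.04) fell. Hfe (-0.08 ± 0.06, edgeR adjusted p = 0.33) and Cd163 (-0.21 ± 0.24, edgeR adjusted p = 0.50) were not called. By label, the ratio of Blvra was 0.25 ± 0.04 in WT IR and -0.46 ± 0.04 in cKO IR, the only change of sign between the labels, and these values carry the Lyz2 mismatch of the IR IP groups described above.

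None of the 10 genes had a consensus m6A peak, a peak called by the authors in all 3 IP libraries of a group and overlapping an exon of the gene on its strand. Such a peak was held by 27.4% (WT) and 25.5% (cKO) of all genes tested in the Ctrl groups, and by 23.1% and 20.5% in the IR groups labelled WT and cKO. Among the 5426 genes at least as abundant as Hfe in the Inputs the shares, in the same order, were 40.7, 37.3, 36.1 and 32.2%. In all 12 IP libraries the 10 genes held 3 peaks, all in Blvra. Peaks at chr2:127082790-127082953 and chr2:127082793-127082956 in replicates 2 and 3 labelled WT IR had a fold enrichment of 2.89 and 3.28, with summits outside the exons of the main transcript. A peak in cKO Ctrl replicate 2 (fold 5.01) had its summit in the coding part of exon 7. Cd163, the transcript most enriched over Input, had no peak in any library at its low coverage. GGACT, the core of the commonest m6A consensus, occurred 0 times in the main transcripts of Hmox1, Blvrb and Fth1, once in those of Blvra and Ftl1, and 2 to 7 times in those of Slc11a1, Hfe, Slc40a1, Tfrc and Cd163. Per kilobase the median of the 10 genes was 0.947, against 1.02 over 21901 protein-coding genes, read on the transcribed strand.

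Consensus peaks were held by some other heme and iron genes, regulators of the set among them. Of the 55 other heme and iron genes tested, 15 had a consensus peak in WT Ctrl (27.3%) and 16 in cKO Ctrl (29.1%), and 15 (27.3%) and 9 (16.4%) in the IR groups labelled WT and cKO, shares near those of all genes. Bach1, Nfe2l2 and Ncoa4 were among the 8 marked in all 4 groups. Also among them, and named after their values were seen, were Keap1, which holds NRF2 in check, Mafk, a dimer partner of NRF2 and BACH1, the iron-sensing ubiquitin ligase subunit Fbxl5 and the mitochondrial iron importer Slc25a28. Of the 55 genes, 37 had a consensus peak in no group. How many of all genes were marked in all 4 groups was not counted. The log2 IP over Input of Nfe2l2 was 1.30 ± 0.03 in WT Ctrl and 0.70 ± 0.03 in cKO Ctrl, a difference of -0.61 ± 0.04 (edgeR adjusted p = 6.6e-14). Its consensus peaks in WT Ctrl had their highest summits in coding exons 2, 4 and 5, with fold enrichments of 1.84 to 2.85. Bach1 had a ratio of 0.45 ± 0.03 in WT Ctrl and 0.46 ± 0.03 in cKO Ctrl, with no detectable difference (0.01 ± 0.04), and 4 consensus peaks in WT Ctrl. The peak of Ncoa4 lay in coding exon 8 in every group (fold 1.23 to 1.69). Hmox2 had a ratio of 0.86 ± 0.03 in WT Ctrl, against -3.37 for Hmox1, and a consensus peak whose summit lay 2 bases before the last coding base in WT Ctrl, cKO Ctrl and the group labelled WT IR (fold 1.94 to 2.92).

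Windows of 25 bases around the GGACT closest to these summits are shown for the 2 regulators that held GGACT within 50 bases of a consensus summit, Bach1 in WT Ctrl, cKO Ctrl and the group labelled cKO IR and Hmox2 in its 3 marked groups. The windows are from the GRCm38 genome, and capitals mark GGACT.
Bach1 coding exon 3, chr16:87718955-87718979, + strand: ttaagtttttGGACTccacttcaga
Hmox2 coding exon 6, chr16:4766069-4766093, + strand: cttggtagctGGACTcttggcctgg
On the strand of the gene, GGACT was held by 11.5% (WT) and 11.4% (cKO) of the 101-base windows around all consensus summits in Ctrl, and by 11.2% and 12.1% in the IR groups labelled WT and cKO. The summits of Nfe2l2 and Ncoa4 had no GGACT within 50 bases.

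The genes whose Input levels were most like those of each member are named as a description. The measure was Pearson's r of log2(CPM + 1) over the 12 Inputs, among genes with a mean of at least 10 CPM. The 10 members were left out of the candidates, so likeness between members is not shown. The 12 libraries come from 4 groups, so differences between groups enter these values. The closest to Hmox1 were Sqstm1 (r = 0.98), Dap and Mxi1. Those closest to Slc40a1 were Gclc (r = 0.99), Mxd1 and Txnrd1. Fth1 was followed by Glipr1 (r = 0.99), Fbxl5 and Rpl41, and Ftl1 by Gm7665 (r = 0.86), Mocos and Mtch1. Blvrb was followed by Psmb8 (r = 0.99), Psma7 and Polr1d, Blvra by Plekhf2 (r = 0.99), Batf and Sdf2l1, and Tfrc by Clec4a1 (r = 0.98), Morc3 and Samd9l. Hfe was followed by Lpcat2 (r = 0.98), Tpi1 and Snx8, Slc11a1 by Nop9 (r = 0.96), Neurl3 and Fen1, and Cd163 by Tent5a (r = 0.91), Gbgt1 and F7. Of these best matches, that of Ftl1 was the lowest.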

How the data were processed

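Gene counts of 12 Input and 12 IP libraries were used as deposited. Per the methods, the authors trimmed reads (Trimmomatic 0.39), aligned them to mm10 with HISAT and counted them per GENCODE vM19 gene with HTSeq, so the values are raw read counts. The peak lists give, per the file headers and the methods, the fold enrichment of IP over Input and the −log10 q that the authors obtained with MACS2 for each IP library. The same notes name SAMtools and bedtools 2.26.0. The kit keeps strand, and RNA was polyadenylated.

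Genes reaching 10 counts in 3 or more libraries were fitted with edgeR 4.0.16 (R 4.3.3; TMM scaling; glmQLFit and glmQLFTest), 16090 genes over the 12 Inputs with 4 groups and 17373 over all 24 libraries with 8 groups. P-values were adjusted by Benjamini-Hochberg over all genes tested, and adjusted p under 0.05 was called. CPM was computed on the same scaling over the 12 Inputs, or over the 24 libraries where IP values are given. IP over Input is the contrast within a group, and differences of it were tested in the same fit. Replicate peaks overlapping by at least 1 base on the gene's strand in all 3 libraries formed consensus peaks. UTRs, exons and lengths were taken from GENCODE vM21, whose identifiers matched 54409 of 54446, and 4.1 to 6.8% of Input and 2.97 to 3.73% of IP reads were assigned to no gene and left out. Sequence windows were checked against the GRCm38 genome and none differed.

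Groups came from the sample labels. The 10 genes, the list of 63 other genes and the marker lists were chosen with earlier results of these data known. Named besides the 10 were the 3 largest called changes of that list per Input comparison, Ireb2, Aco1, Hmox2, Ncoa4, Slc48a1, Bach1 and Nfe2l2, the erythroid genes, Lyz2, Ythdf2 and the 3 closest genes per member. Gclc, Gclm, Txnrd1, Srxn1, G6pdx and the other genes with a peak were named after their values were seen. The fit was tested on simulated data with 200 changed genes. For WT IR against WT Ctrl Inputs (16090 genes) it recovered 70.1% of 1.25-fold and 100% of 1.5-fold changes. For IP over Input in WT Ctrl (17373 genes) the shares were 82.1% and 95.5%. Every simulated gene had the same spread between libraries (coefficient of variation 5.57% and 4.98%), and no changed gene had low counts. The wider spread of the WT IR Inputs and the low counts of Cd163 were thus not represented, and recovery there was not tested. Alternatives were DESeq2 1.42.0, DESeq2-type size factors, other count filters, single-comparison fits, a replicate block, leaving out each library or the globin genes, and stricter or looser peak rules. Same-numbered Inputs of different groups did not deviate together (r from -0.41 to 0.30 over 18 pairs, 2 above 0.1), so the numbers were not taken as pairs. Whether the Input and IP of the same number deviated together was not examined, and IP over Input was fitted without that pairing.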

Additional observations from a re-analysis of the deposited data

Results flagged for a closer look

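The effect of irradiation on the Input level differed between the genotypes, by a test of the difference itself, for 4 of the 10 genes, against 30.2% of all genes. In cKO it was higher by 0.43 on the log2 scale for Blvra, 0.46 for Blvrb, 0.16 for Fth1 and 0.18 for Ftl1. Blvra was the 1 gene of the set whose change was called in both genotypes with opposite signs. Among the other heme and iron genes named above, the same test gave 1.53 for Lcn2, 0.68 for Hp, 0.37 for Cp and 0.34 for Nqo1, higher in cKO, and -0.69 for Lrp1, -0.29 for Aco1, -0.21 for Ncoa4, -0.17 for Nfe2l2 and -0.15 for Bach1.

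The log2 IP over Input differed between cKO Ctrl and WT Ctrl, as tested in the same fit, for 7 of the 10 genes, against 22.6% of all genes. It was higher in cKO by 0.93 for Slc40a1, 0.26 for Ftl1, 0.25 for Hmox1 and 0.22 for Fth1. It was lower in cKO for Cd163 (-2.01), Tfrc (-0.18) and Blvrb (-0.17). The Cd163 value compares IP and Input libraries of which the Inputs hold 23 to 93 counts of the gene, and the last 2 lost their calls without single libraries.

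Between IR and Ctrl, averaged over the genotype labels, 8 of the 10 differed, against 48.4% of all genes. The log2 IP over Input was higher in IR by 0.72 for Slc11a1, 0.46 for Slc40a1, 0.33 for Fth1, 0.24 for Hmox1, 0.24 for Ftl1 and 0.17 for Blvrb. It was lower for Tfrc (-0.22) and Blvra (-0.16). In these IR IP libraries Lyz2 did not follow the genotype label. The share of mitochondrial counts also differed between the IP groups compared here and in the preceding paragraph, and its part was not tested.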

How the results depend on the processing

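No value that was called in the main fit or in the alternative reversed its direction. Changes of sign among values called in neither were not counted. Of the 10 genes, 4 to 7 were called with irradiation in WT Inputs when single libraries were left out, 7 in cKO, 5 to 7 between the Ctrl groups, 7 to 9 between the IR groups and 4 to 5 for the difference of the effects. For IP over Input, 9 were called in WT Ctrl in every such fit, 9 to 10 in cKO Ctrl and 5 to 7 for their difference. With the replicate number as a block the counts were 5, 7, 7, 8 and 4 for the Input comparisons and 9, 10 and 7 for IP over Input, as without it, and no call among the 10 genes changed. DESeq2 added 1 call among the Input values of the 10 genes (Slc11a1 with irradiation in WT, -0.07, adjusted p = 0.038), and without a count filter Hmox1 (0.17, edgeR adjusted p = 0.00057, difference of the effects) and Blvrb (0.11, edgeR adjusted p = 0.045, Ctrl groups) were called. Fits of single comparisons ended the calls of Hmox1 between the IR groups (edgeR adjusted p = 0.089) and of Hfe in WT (edgeR adjusted p = 0.053) and called Blvrb between the Ctrl groups (edgeR adjusted p = 0.0014), where the count over all genes was 3891 in place of 2520. Under DESeq2-type size factors and under DESeq2, IP over Input lost Blvra in cKO Ctrl (0.05) and the genotype differences of Blvrb (-0.16) and Tfrc (-0.17). When a peak in at least 2 of 3 replicates sufficed, 1 of the 10 genes (Blvra) had a peak in the group labelled WT IR, and the other peak rules gave 0. The cause of these changes was not tested. Depth limited Cd163, with 17 to 93 Input counts a library, and the replicates measure the spread between libraries of pooled mice.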
